A study of Mus musculus with 4 samples.

Results

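The cluster of miR-183, miR-96 and miR-182 was represented by 3 of the 566 probes for mouse miRNAs, found by name as mmu-miR-183, mmu-miR-96 and mmu-miR-182. No probe for the other arm of these hairpins was among them. Mature miRNAs were counted with NanoString nCounter probes, which carry a color-coded tag for each miRNA, in total RNA of R1 mouse embryonic stem cells (ESCs). The WT group held 2 samples of the R1 line. The TKO group held 2 samples of R1 cells that carry knockouts of the 3 DNA methyltransferase genes (Dnmt1, Dnmt3a and Dnmt3b), and DNA methylation is written by these enzymes. Cells of both genotypes were grown on gelatin in serum and leukemia inhibitory factor (LIF), and for all 4 samples the labels give 4 days of differentiation before RNA isolation. These statements conflict, since LIF holds ESCs undifferentiated, and the state of the cells at isolation is not settled here. The TKO line was derived in another laboratory, so that genotype and the history of the line cannot be told apart. The probes do not read the mRNAs of the DNMTs, and the knockout could not be checked in these data.

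The 3 miRNAs are processed from a shared primary transcript by Drosha and then Dicer, and are best known from sensory organs. They are abundant in the photoreceptors of the retina and in the hair cells of the inner ear, and seed mutations in miR-96 cause progressive hearing loss in mice and humans. The cluster is also raised in many epithelial cancers, and Foxo1 is a well-known target shared by its members. The seed, bases 2 to 8 of the mature miRNA, is the part that pairs with target mRNAs. The probe names carry no arm, and the major 5′ arm of each hairpin was taken to be the one measured.

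The mature sequences of the 5′ arms are shown with the seed in capitals because the members differ there by single bases. They are from RefSeq (GRCm38.p6, minus strand of chromosome 6), all 3 members were found there, and miR-1271 of chromosome 13 is set beside them as the only other mature mouse miRNA of that table with bases 2 to 7 of a member's seed.
miR-183-5p (chr6:30169711-30169732): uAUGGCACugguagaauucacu
miR-96-5p (chr6:30169506-30169528): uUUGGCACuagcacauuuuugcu
miR-182-5p (chr6:30165962-30165986): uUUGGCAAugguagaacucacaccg
miR-1271-5p (chr13:54578152-54578173, plus strand): cUUGGCACcugguaagcacuca
Counted from the 5′ end, the seed of miR-183 differed from that of miR-96 by A2U, and the seed of miR-96 from that of miR-182 by C8A. The seed of miR-96 equals that of miR-1271. Outside the seed the kinship is another one. Aligned from base 1 without gaps, miR-183 and miR-182 were identical at 18 of 22 positions and shared the run UGGUAGAA from base 9, while miR-183 and miR-96 were identical at 13 of 22. No probe for miR-1271 was in the table, so no miRNA outside the cluster with one of these seeds was measured.

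In GRCm38.p6 the precursors lie on the minus strand of chromosome 6, within 3820 bases and inside the span of the long noncoding RNA gene Mirc35hg (30158640 to 30174125). The span alone was read, so that exons and introns are not told apart. In the direction of transcription mir-183 comes first, followed after 116 bases by mir-96 and after a further 3453 bases by mir-182. The protein-coding gene Nrf1, which encodes a transcription factor of mitochondrial and housekeeping genes, ends at 30153458 on the far side of mir-182. The hairpins are shown with the 5′ arm in capitals. The study sorted miRNAs by CpG methylation at the borders of the hairpin, and defined its methylated groups from flanks just outside the bases printed here.
mir-183 (chr6:30169668-30169737): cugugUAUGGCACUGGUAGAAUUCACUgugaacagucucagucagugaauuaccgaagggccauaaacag
mir-96 (chr6:30169446-30169551): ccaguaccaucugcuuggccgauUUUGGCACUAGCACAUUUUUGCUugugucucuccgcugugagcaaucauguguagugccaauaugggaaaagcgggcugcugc
mir-182 (chr6:30165918-30165992): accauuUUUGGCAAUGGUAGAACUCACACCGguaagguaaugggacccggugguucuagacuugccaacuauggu
The hairpin of mir-183 holds 1 CpG, that of mir-96 holds 3 and that of mir-182 holds 2. Among the 1005 mouse hairpins of the RefSeq table the median is 1 CpG, and 22.9% hold at least 3. These counts are per hairpin, are not adjusted for its length and do not cover the flanks. The promoter window of the host gene, 250 bases before to 50 bases after its annotated start, is far richer in this dinucleotide and is printed with each CG in capitals (the dinucleotide reads the same on both strands).
Mirc35hg promoter (chr6:30174076-30174375, minus strand): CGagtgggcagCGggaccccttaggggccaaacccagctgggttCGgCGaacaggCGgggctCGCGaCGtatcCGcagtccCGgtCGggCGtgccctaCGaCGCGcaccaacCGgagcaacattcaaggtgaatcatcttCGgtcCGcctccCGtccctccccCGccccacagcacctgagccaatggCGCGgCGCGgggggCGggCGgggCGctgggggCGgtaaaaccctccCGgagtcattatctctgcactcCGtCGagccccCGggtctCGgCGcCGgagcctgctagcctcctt
It holds 35 CpG and its GC content is 70.3%. The median window of the same length holds 7, and 6.95% of all 32851 promoter windows hold at least 35. Methylation of these sequences was not analysed here.

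The deposited values turn back into whole counts per probe, which summed to between 511661 and 613666 per sample. Background was taken from the 33 probes for viral miRNAs, whose mean plus 2 SD was 69.2 normalized counts, and 238 mouse probes (42.0%) had a mean above it. The identity of the cells was checked with the miR-290 cluster, the hallmark of mouse ESCs, whose probes held 57.4% and 55.8% of the summed mouse signal in the WT samples and 53.8% and 51.2% in the TKO samples. The probe for miR-720, a tRNA-derived RNA, moved this denominator, with 9.72% and 11.4% of the signal for WT and 16.6% and 22.6% for TKO. Without it the miR-290 cluster held 63.6% and 63.0% for WT and 64.5% and 66.2% for TKO, the opposite order. Markers of liver (miR-122) and muscle (miR-1 and miR-133a) were not above background. The neuronal marker miR-124 averaged 479 normalized counts for WT against 133.2 for TKO. Of the 3 blood probes 2 were above background, with a summed level of 868 to 931 for WT and 1271 to 1395 for TKO, most of it miR-142-3p, and miR-223 was not above background. The part of such cells in the results below was not tested. In bulk RNA, fewer cells that express a miRNA and less of it per cell cannot be told apart.

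All 3 members were well above background in every sample. miR-96 gave the strongest signal, reading 4143 and 4099 normalized counts for WT replicates 1 and 2, and 3714 and 3927 for TKO replicates 1 and 2. It ranked between 15 and 18 among the 566 mouse probes in the 4 samples. The TKO values lay below both WT values, and the means (4121 ± 30.9 for WT and 3820.4 ± 150.4 for TKO, SD, n = 2 each) stood in a ratio of 0.927.

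miR-183 read 1100.1 and 1093 normalized counts for WT, against 970 and 1002 for TKO. Again both TKO values lay below both WT values. The means were 1096 ± 5.25 in WT and 986 ± 23.2 in TKO cells (SD, n = 2 each). The WT replicates of miR-183 differed by less than their counting errors of 3.12% and 2.98%.

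miR-182 was the weakest of the 3, reading 469 and 484 normalized counts for WT, against 377 and 273 for TKO. Its TKO values were both below the WT range and lay far apart from each other. The exact 95% Poisson interval of TKO replicate 1 was 340 to 416 normalized counts and that of TKO replicate 2 was 241 to 309, so that they differed by more than counting error. Such intervals cover counting error only. The means were 476 ± 10.6 in WT and 325 ± 73.0 in TKO cells (SD, n = 2 each).

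**Figure D1:**
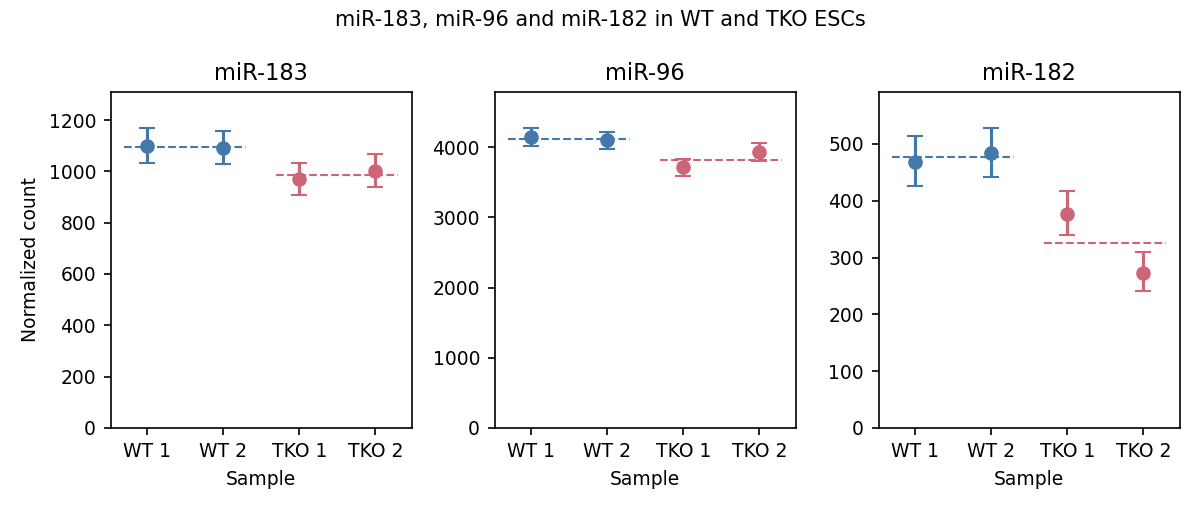
Normalized counts (y axis, from 0) of the 3 miRNAs in each WT (blue) and TKO (red) replicate, with exact 95% Poisson intervals as bars and group means as dashed lines. In the authors' scaling the TKO values lie below the WT values for each miRNA (with sums that leave out miR-720, miR-183 and miR-96 turn to 0.14 and 0.18 on the log2 scale), and miR-182 has the widest gap between TKO replicates (377 and 273).

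The order miR-96, miR-183, miR-182 was the same in all 4 samples, and neighbours in this order differed by more than the spread between replicates. Probes can differ in how well they capture their target, so this is an order of signals. Summed over the 3 probes, the cluster took 0.970% and 0.954% of the mouse signal for WT, against 1.00% and 0.903% for TKO. As a share of all signal the groups thus overlapped. With miR-720 left out of the denominator, a choice made after seeing the data, the shares were 1.07% and 1.08% for WT and 1.202% and 1.167% for TKO, which did not overlap and were higher for TKO. The summed level itself was 5711 and 5675 normalized counts for WT, against 5060.1 and 5202 for TKO, a log2 difference of -0.15 that turned to 0.14 with samples scaled to sums that leave out miR-720 (exact permutation test of the former, two-sided, p = 0.333, which is the smallest that 2 samples against 2 can give).

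To ask whether loss of the DNMTs went with a lower level of these miRNAs, each probe was tested with limma on log2 of the normalized count plus 1, and p-values were adjusted by Benjamini-Hochberg over the 566 mouse probes. The difference of miR-96 was -0.11 (SE 0.14, 95% interval -0.50 to 0.28, adjusted p = 0.707). That of miR-183 was -0.15 (SE 0.14, interval -0.54 to 0.23, adjusted p = 0.598). The difference of miR-182 was -0.57 (SE 0.21, interval -1.13 to -0.0058), which corresponds to a level 32.6% lower, with an unadjusted p = 0.0485 and an adjusted p = 0.211 from limma.

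None of the 3 was called at an adjusted p under 0.05, by limma or by voom on the recovered counts. At an unadjusted p under 0.05 each of these tools gave 1 of the 3, miR-182, whose adjusted p with voom was 0.0668. At that unadjusted threshold voom gave 108 of the 566 mouse probes lower and 48 higher. limma without a pseudocount gave 82 lower and 48 higher, so such values were common. Over all mouse probes limma called 8.48%, 4.24% lower and 4.24% higher, and among probes above background 17.2%, of which 9.24% lower and 7.98% higher. That both TKO values lay under both WT values, as for 3 of 3 members, held for 36.0% of all mouse probes and for 52.1% of those above background, while the opposite order held for 17.3% and 18.9%. This separation was therefore common in the data and does not set the members apart.

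The median difference of all mouse probes was -0.12, and that of the probes above background was -0.20. Relative to the median of all probes, miR-96 stood at 0.012 and miR-183 at -0.031, so that both moved with the bulk of the miRNAs. miR-182 stood at -0.45 below that median. Of the 238 probes above background, 45 (18.9%) had a lower difference than miR-182, against 134 (56.3%) for miR-183 and 147 (61.8%) for miR-96. Left out one at a time, the TKO replicates moved the value of miR-182 most. Without TKO replicate 1 it was -0.80 and without TKO replicate 2 it was -0.34, and its adjusted p over all settings tried ranged from 0.0668 to 0.507 (limma and voom).

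**Figure D2:**
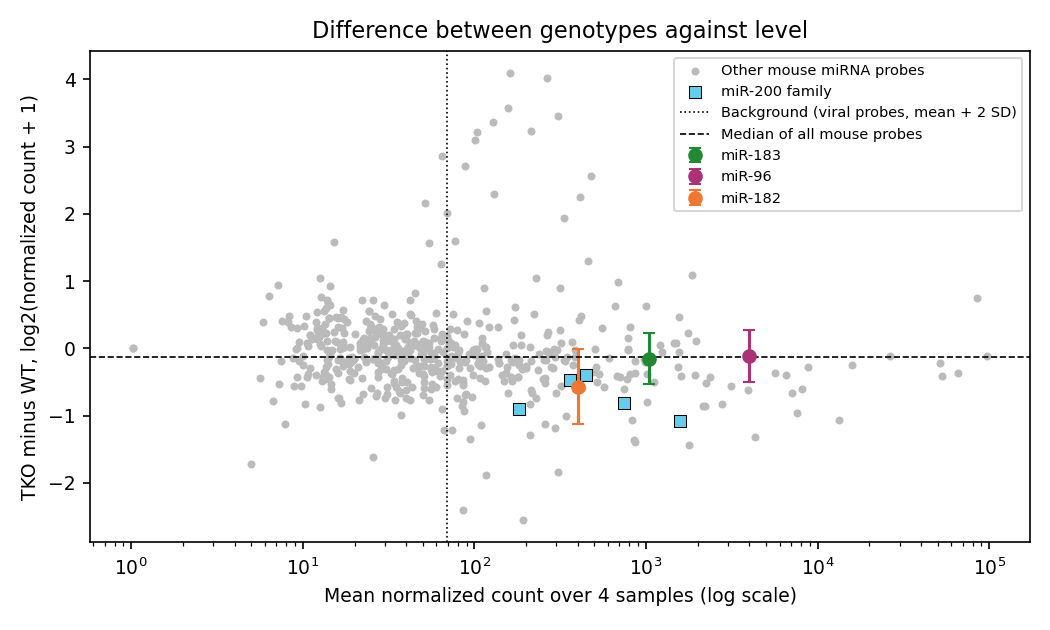
TKO minus WT difference (y axis, log2 of the normalized count plus 1) against the mean normalized count over 4 samples (x axis, log scale) for the 566 mouse probes, with 95% intervals from limma for the 3 members and the miR-200 family as squares. miR-96 and miR-183 lie at the median of all probes (-0.12, dashed) and miR-182 below it at -0.57.

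Scaling decides where zero lies for such small differences. With each sample divided by its sum over the mouse probes, the median of all probes moved from -0.12 to 0.0089 and the difference of miR-96 to 0.025, a change of sign, while miR-183 came to -0.019 and miR-182 to -0.43. With miR-720 left out of that sum the median moved to 0.16, miR-96 to 0.18, miR-183 to 0.14 and miR-182 to -0.28. The direction of miR-183 and miR-96 therefore depended on the scaling, and that of miR-182 was negative in every setting tried. Relative to the median of the probes tested in each setting, miR-182 lay between -0.74 and -0.18 over all settings tried, below it in each. For miR-96 this relative value ranged from -0.11 to 0.097, and for miR-183 from -0.15 to 0.057. Both lower ends came with the background subtracted, where low values were set to a common floor and the median was 0.

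**Figure D3:**
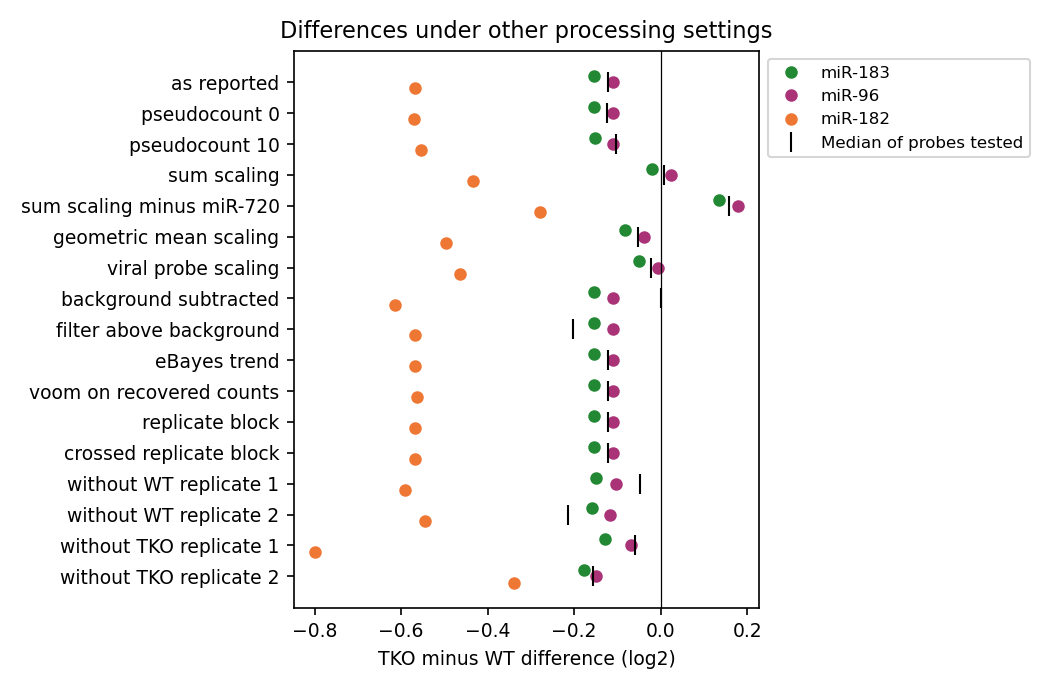
TKO minus WT differences (x axis, log2) of the 3 miRNAs under each processing setting (y axis), with the median of the probes tested as a black tick. miR-96 and miR-183 follow the tick under most settings, between -0.18 and 0.18 with a change of sign under sum scaling (miR-96) and with miR-720 left out of the sum (both), and miR-182 stays between -0.80 and -0.28.

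Ratios between members within a sample do not depend on how that sample was scaled, and the 3 mature miRNAs come from a shared transcript. The log2 ratio of miR-96 to miR-183 was 1.91 in both WT replicates, 1.94 in TKO replicate 1 and 1.97 in TKO replicate 2. It moved by 0.044 between the genotypes, with both TKO ratios above both WT ratios and a pooled SD between replicates of 0.016. Counting errors per sample, 2.98 to 3.27% for miR-183 and 1.54 to 1.65% for miR-96, enter each ratio. Whether so small a shift exceeds counting error was not tested. The precursors of this pair lie 116 bases apart. The log2 ratio of miR-182 to miR-183 was -1.23 and -1.17 in the WT replicates, -1.36 in TKO replicate 1 and -1.87 in TKO replicate 2. The TKO ratios were both below the WT ratios. Their mean difference of -0.41 compares with a pooled SD between replicates of 0.26. It was -0.67 without TKO replicate 1 and -0.16 without TKO replicate 2. No p is given, since an exact permutation test of 2 against 2 samples cannot go below 0.333.

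In shares of the summed counts, miR-183 made up 19.3% of the cluster in both WT replicates, 19.2% in TKO replicate 1 and 19.3% in TKO replicate 2. This share was thus level across genotypes. miR-182 made up 8.21% (exact Clopper-Pearson 95% interval 7.48 to 8.98) and 8.52% (7.82 to 9.27) in the WT replicates. In TKO replicate 1 it made up 7.44% (6.74 to 8.19), a value below both WT intervals with an interval that overlapped both. In TKO replicate 2 it made up 5.25% (4.64 to 5.92), with an interval that overlapped neither WT interval nor that of TKO replicate 1. The lower share of miR-182 in the TKO mean thus rests mainly on TKO replicate 2.

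**Figure D4:**
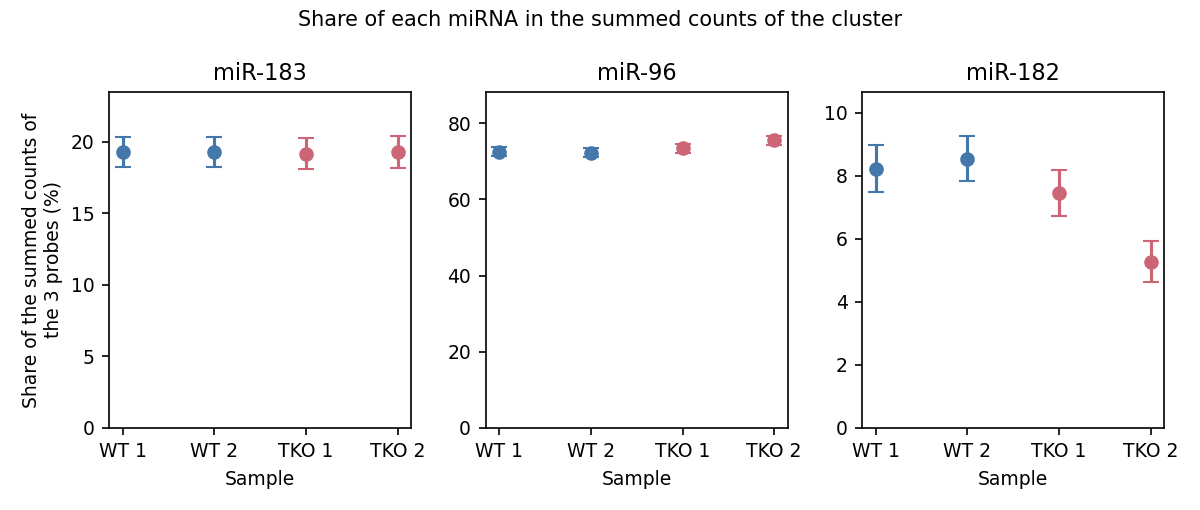
Share of each miRNA in the summed counts of the 3 probes (y axis, percent, from 0) in each WT (blue) and TKO (red) replicate, with exact 95% binomial intervals as bars. miR-183 stays at 19.2 to 19.3%, and miR-182 is lowest in TKO replicate 2 at 5.25%.

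The study sorted mouse precursors by CpG methylation at the hairpin borders, and its list puts mir-183 and mir-96 in the downstream group, with methylation at the 3′ border. It puts mir-182 in the flat group. The study describes that group both as lacking methylation at the borders and as evenly methylated along the whole locus. The text of the study also describes the miR-182 locus, without naming a species, as highly methylated upstream, so the state of mir-182 is not settled here and no contrast is built on it. miR-182 had a difference of -0.57, and miR-183 and miR-96 had -0.15 and -0.11. The median difference was -0.16 over the 82 probes of the downstream group and -0.11 over the 231 probes of the flat group. With 1 sample left out these ranged from -0.24 to -0.067 and from -0.20 to -0.015, and sum scaling turned the flat median to 0.020, and without miR-720 in the sum both medians to 0.12 and 0.17. limma called 6 probes lower and 1 higher in the downstream group, and 8 lower and 10 higher in the flat group. Counted in both directions together, these shares are close to the 8.48% called over all mouse probes. By direction the downstream calls were mainly lower, while over all mouse probes 4.24% were called lower and 4.24% higher. Whether the directions differ was not tested. With 3 members, and none called, no test of the grouping was made.

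Over the 4 samples, the patterns of the members were set against the 237 other probes above background by the root mean square difference of the mean-centred log2 levels. The probe nearest to miR-96 was miR-183, with a difference of 0.025, followed by miR-378 (0.027) and miR-31 (0.029). The probe nearest to miR-183 was miR-494 (0.021), with miR-96 in the second place and miR-539 (0.026) in the third. miR-182 ranked 152 from miR-183 and 160 from miR-96. Its nearest probes were miR-297c (0.055), miR-323-3p (0.065) and miR-24 (0.072). The miR-323-3p probe read 296 and 295.3 normalized counts for WT, against 255 and 185 for TKO, and so shared with miR-182 the lower value in TKO replicate 2. These are descriptions over 4 samples, and shared library effects enter them.

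The miR-200 family (miR-200a, miR-200b, miR-200c, miR-141 and miR-429) holds the epithelial state by repressing Zeb1 and Zeb2, and is often found in the same epithelia as the miR-183 cluster. All 5 of its probes had TKO values under both WT values, and limma called 2 of them lower. Among all mouse probes above background that order held for 52.1%, and limma called 9.24% lower. miR-429 fell from 2148 ± 38.6 to 1018 ± 166 normalized counts (mean ± SD, n = 2 each), a log2 difference of -1.09 (adjusted p = 0.0403 from limma), and miR-200a fell from 237 ± 16.2 to 126 ± 11.7, a difference of -0.90 (adjusted p = 0.0454 from limma). With any 1 sample left out limma called neither, and voom called 4 of the 5. limma did not call miR-200b (-0.82), miR-141 (-0.47) or miR-200c (-0.40), and voom did call miR-200b (adjusted p = 0.00313) and miR-141 (adjusted p = 0.0351). The median of the family was -0.82, against -0.15 for the members of the miR-183 cluster and -0.12 for all mouse probes. Whether the family and the cluster differ from each other was not tested. The value of miR-182 lies within the range of the family, between those of miR-200b and miR-141, and those of miR-183 and miR-96 lie outside it.

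Of 8 probes for other miRNAs known from sensory organs and neurons (miR-124, miR-9, miR-204, miR-211, miR-128, miR-137, miR-7a and miR-7b), 4 were above background. limma called 4.24% of all mouse probes lower, and 9.24% of those above background. Of the 8 it called 2, both lower. These were the neuronal miR-124, with a difference of -1.84 (adjusted p = 0.00620), and miR-211 of the Trpm1 gene (adjusted p = 0.0201), which read 151 and 138 normalized counts for WT and 19.8 and 35.4 for TKO. As the TKO values of miR-211 lay below background, the size of its difference is not measured, and limma no longer called it with the background subtracted (adjusted p = 0.0935). With any 1 sample left out limma called neither. limma did not call miR-7a (-0.66) or miR-9 (-0.29), and voom called 3 of the 8, miR-7a among them (adjusted p = 0.0373). The median of the list was -0.25, but -0.051 without WT replicate 1 and -0.50 without WT replicate 2, and no order against the cluster is read from it.

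Along chromosome 6, 5 other miRNA genes matched by name to probes lie within 5 Mb of the cluster, with 7 probes, of which 5 were above background. limma called none of the 7 (4 at an unadjusted p under 0.05), and voom called 2, both for mir-335. At that unadjusted threshold limma without a pseudocount gave 82 of all 566 mouse probes lower and 48 higher. mir-335 lies 572 kb from mir-183 in the imprinted gene Mest, and had the opposite sign to the cluster. miR-335-5p read 176 and 126 normalized counts for WT, against 292.5 and 325 for TKO, a difference of 1.04 (adjusted p = 0.0671 from limma and 0.0105 from voom), and miR-335-3p a difference of 0.61. miR-29a, whose gene lies 893 kb from mir-183, had -0.45, and miR-29b had -0.18. The miR-29b probe reads the product of 2 genes, of which the other lies elsewhere. miR-129-3p had -0.21. Both signs thus occurred along this stretch of the chromosome.

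Joining precursors within 10 kb gave 3 other groups read by 3 probes above background, whose members share a neighbourhood and not necessarily a transcript. The range of their differences was 0.27 for miR-429, miR-200a and miR-200b, and 0.61 for miR-25, miR-93 and miR-106b. For miR-302a, miR-302d and miR-367 it was 1.53. The WT values of miR-302a (47.1 and 53.4 normalized counts) lay below background, so the size of its difference and of that range is not measured. Within the miR-183 cluster the range was 0.46, from -0.57 to -0.11. Whether these ranges differ was not tested.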

How the data were processed

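The authors normalized nCounter counts with nSolver and deposited log2 values for 4 samples. The version, background handling and scaling probes are not given in the sources used here. The values were turned back to normalized counts. Each sample's values were whole multiples of 1 step (0.971 to 1.07) within 0.05 of a count for 100% of values. A pseudocount of 1 was added, which understates changes of low probes, log2 was taken, and the 566 mouse probes were fitted with limma (lmFit and eBayes) at an adjusted p of 0.05. The labels and design text state biological replicates. With 2 per genotype, p-values are limited by that number.

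Named are the members, probes of the lists above background or called, the cell markers, and the 3 probes nearest in pattern to each member. Other members of the lists are named only to define them. miR-720 and the groups of precursors within 10 kb are named outside this rule. Members and lists were chosen with earlier results of these data known. Alternatives covered pseudocount, scaling, background, filter, test, replicate block and each replicate left out. The fit was tested on simulated data. The fits ran in limma 3.58.1 under R 4.3.3, and the remaining steps in Python 3.11.15 with scipy 1.17.1, pandas 2.3.3, matplotlib 3.10.9 and numpy 2.4.6.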

Additional observations from a re-analysis of the deposited data

How the results depend on the processing

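None of miR-183, miR-96 and miR-182 was called under any of the alternatives, and miR-182 kept a negative difference in all of them. miR-96 turned to 0.025 with sum scaling. With miR-720 left out of that sum, chosen after seeing the data, miR-183 turned to 0.14, miR-96 to 0.18, the summed level to 0.14, the median of the sensory and neural list to 0.032, that of the chromosome 6 neighbours to 0.11, miR-29b to 0.11 and miR-129-3p to 0.081, while the medians of all mouse probes, the downstream group and the flat group moved to 0.16, 0.12 and 0.17 and that of the miR-200 family to -0.53. In that setting 9 probes were called lower, and 0 of the miR-200 family were called. The 1 chromosome 6 neighbour called, miR-335-5p, was higher for TKO (1.33). With 1 replicate left out, miR-183 lay between -0.18 and -0.13, miR-96 between -0.15 and -0.070 and miR-182 between -0.80 and -0.34. The summed level (-0.15) moved to -0.016 with sum scaling, -0.079 with geometric mean scaling and -0.047 with viral probe scaling. The probes called lower over all mouse probes (24) became 13 with the background subtracted, 48 with only probes above background, 54 with eBayes trend, 55 with voom and 0 to 1 with a replicate left out, and those called higher (24) became 0 to 13 with a replicate left out (at an unadjusted p under 0.05 limma then gave 48 to 75 lower and 37 to 54 higher, with the lone sample of a group assumed to vary like the other group). The median of the miR-200 family (-0.82) moved to -0.69 with sum scaling and -0.72 with viral probe scaling, and lay between -0.88 and -0.73 with a replicate left out. Its calls (2) became 0 with sum scaling, background subtracted or a replicate left out, 1 with pseudocount 0 or viral probe scaling, and 4 with the filter, the trend or voom. The sensory and neural list had a median (-0.25) of -1.25 with only probes above background, since 4 of 8 then remain, and its calls (2) became 1 with the background subtracted and 0 with a replicate left out. The chromosome 6 neighbours moved from -0.18 to -0.048 with sum scaling, and their calls (0) became 1 with pseudocount 10 or any of the 3 scalings, 2 with the trend or voom and 3 with the filter. For the 14 single miRNAs outside the cluster, 2 of 210 alternatives reversed a direction, 27 lost a call and 22 gained one. The cause of these changes was not tested where no construction is named.

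Replicate numbers are not stated to pair the samples. Deviations of same-numbered samples correlated at -0.094 over all mouse probes and -0.24 over those above background. With replicate number as a block, the differences of miR-183, miR-96 and miR-182 stayed at -0.15, -0.11 and -0.57 (adjusted p = 0.763, 0.829 and 0.309 from limma), the probes called lower became 10 and those called higher 20, and the miR-200 family had 0 calls. The crossed pairing, chosen after seeing the data, gave 37 lower and 27 higher. Of the members, counting error was largest for miR-182, which had 255 to 498 recovered counts per sample. Its TKO replicates differed by more than counting error.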
